A study of Mus musculus with 10 samples.

Results

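The genes described here are 34 mouse genes that sense, mark and repair DNA double-strand breaks. They are a list of names whose rule uses no measured value, drawn up with earlier results of these data known, and all 34 were found among 30295 gene rows. RNA was measured in cells sorted from the intestine of C57Bl/6 mice, with 1 library for each of 10 animals. Hopx cells came from Hopx-CreER::LSL-tdTomato mice under calorie restriction (Hopx CR, n = 2) or with free access to food (Hopx AL, n = 2). Lgr5 cells came from Lgr5-EGFP-IRES-CreER mice under calorie restriction (Lgr5 CR, n = 3) or with free access to food (Lgr5 AL, n = 3). The series design calls the Hopx cells reserve stem cells and the Lgr5 cells active stem cells, and all animals carried a CreER allele. Each of 5 isolations held a CR animal and an AL animal of 1 reporter line, with isolations 1 to 3 in Lgr5 mice and 4 and 5 in Hopx mice. In a LoxP-STOP-LoxP reporter, tdTomato marks cells in which Cre has acted and also their daughters, so the sort can hold more than the cells that transcribe Hopx. The sources used here state no age, sex or length of restriction.

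A double-strand break is recognised by the kinases Atm and Atr, which signal through Chek2 and Chek1 and phosphorylate the histone H2afx in the chromatin around the break. Cells then either rejoin the ends directly, a route that works throughout the cell cycle, or resect them and copy the sister chromatid by homologous recombination, a route largely limited to S and G2 phase. The Fanconi proteins act with the recombination proteins on crosslinked or stalled replication forks, and many genes of the recombination route are transcribed mostly in cycling cells. In the intestinal crypt, the dividing and the slowly dividing stem cells have long been compared for their response to radiation.

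Libraries held 20.3 M (Lgr5 AL replicate 3) to 87.2 M (Hopx CR replicate 1) estimated counts, and correlations of log2 CPM (counts scaled to the size of the library) between libraries of a group ran from 0.937 to 0.965. The sort was checked against marker lists. All 8 active stem cell markers had lower levels in Hopx than in Lgr5 cells over both diets, and 3 of them passed the test, where 1.33% of all 15839 tested genes passed. Lgr5 mRNA was 158 and 69.3 CPM in Hopx CR and 70.0 and 87.2 CPM in Hopx AL. In the Lgr5 sort it was 238, 149 and 270 CPM in CR and 75.0, 136 and 255 CPM in AL, so the sorts overlapped in this transcript. Hopx mRNA itself was 116 and 81.9 CPM in Hopx CR and 111 and 105 CPM in Hopx AL, against 145, 154 and 152 CPM in Lgr5 CR and 116, 131 and 133 CPM in Lgr5 AL and was thus not higher in the Hopx sort. Markers of Paneth cells and immune cells were present in every library. Summed over 8 Paneth markers, Hopx AL replicate 1 had 205592 CPM, against 61714 to 97847 CPM in the other Hopx libraries. Lgr5 AL replicate 3 had 16002 CPM, against 48180 to 65598 CPM in the other Lgr5 libraries. The 5 most abundant genes held 17.8% of the counts in Hopx AL replicate 1 and 3.06% in Lgr5 AL replicate 3, the highest and lowest shares. In sorted bulk RNA, fewer cells of a type and less RNA per cell cannot be told apart.

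Per unit of transcript length, the 34 genes spanned a wide range of levels. In TPM, abundance scaled for transcript length and library size, H2afx had the highest median of the 10 libraries, at 118 (range 57.6 to 196). Xrcc6, a subunit of the Ku ring that holds broken ends, followed at a median of 33.7 TPM, and Rnf8, a ubiquitin ligase recruited to marked breaks, at 26.9 TPM. The recombination gene Xrcc3 (16.0 TPM), the kinase gene Chek2 (13.6 TPM) and Trp53bp1 (12.3 TPM), whose protein shields ends from resection, came next. The kinase genes Atm (2.08 TPM) and Prkdc (1.64 TPM) and the ligase gene Lig4 (1.57 TPM) were among the lowest in median level. Rad51c stood at a median of 0.875 TPM and Bard1 at 0.226 TPM. The ranges of most neighbours in this order overlapped, since many genes varied several-fold between libraries.

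Brca2, which loads the strand-exchange recombinase onto resected DNA, had 0 rounded counts in all 10 libraries. Over their 478.8 M counts, 3 counts correspond to 0.00627 CPM, and this limit covers counting error only. Its deposited TPM was 0 in 7 libraries and at most 5.59e-07 in the other 3, all of them CR libraries. After rounding, 5544 of 30295 rows were at 0 counts in every library, and why Brca2 is among them was not tested. Its partners were measured. Palb2, which bridges Brca1 and Brca2, had a median of 3.58 TPM and Brca1 2.84 TPM. Brca2 did not pass the filter on low counts, and the other 33 genes did.

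**Figure D1:**
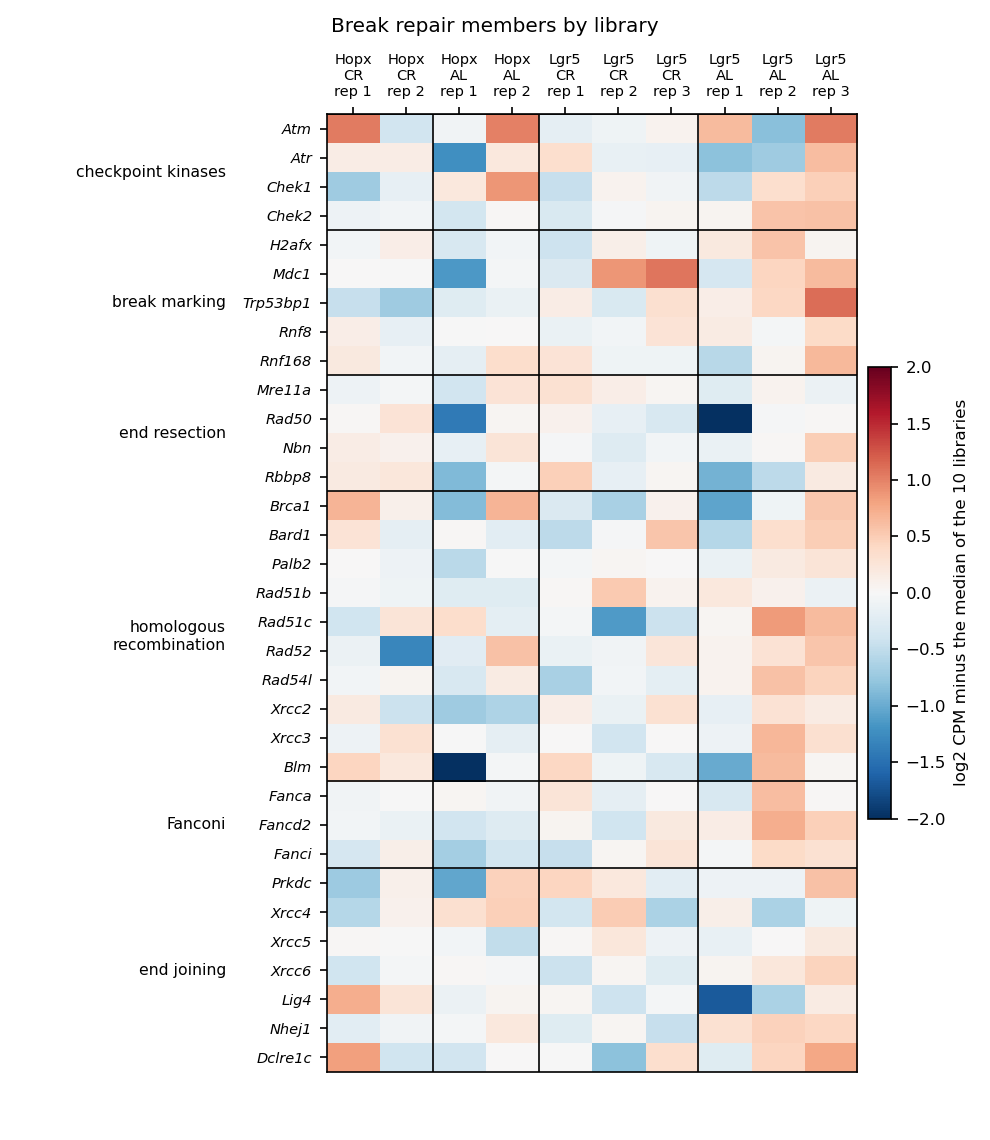
Levels of the 33 tested break repair genes (rows, by role) in the 10 libraries (columns, by group), as log2 CPM minus the median of the 10 libraries for that gene. The colour scale ends at 2 in either direction. Most rows vary without a border between groups, and Hopx AL replicate 1 and Lgr5 AL replicate 1 are low for several genes such as Rad50, Blm and Brca1.

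The promoters are shown for the 4 genes on which the diet comparisons below turn most. The RefSeq table (GRCm38.p6) holds 300 base windows, 250 before and 50 after the annotated start, for 27 of the 34 genes. Capitals mark matches on either strand to the motif TTCCCGC, the core of sites bound by E2F factors. They also mark matches on either strand to CCAAT, the box bound by NF-Y. The 2 motifs can share 1 base. Chek1 (chr9:36726609-36726908, minus strand), Chek2 (chr5:110839733-110840032, plus strand), Rad54l (chr4:116123641-116123940, minus strand) and Xrcc6 (chr15:82016119-82016418, plus strand) are written 5′ to 3′ along the gene.
Chek1: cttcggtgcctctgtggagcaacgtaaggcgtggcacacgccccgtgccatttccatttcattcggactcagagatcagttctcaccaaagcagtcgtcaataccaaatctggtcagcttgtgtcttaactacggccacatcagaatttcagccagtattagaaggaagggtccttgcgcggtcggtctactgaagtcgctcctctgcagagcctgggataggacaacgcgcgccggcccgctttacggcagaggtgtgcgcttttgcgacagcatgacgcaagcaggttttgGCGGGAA
Chek2: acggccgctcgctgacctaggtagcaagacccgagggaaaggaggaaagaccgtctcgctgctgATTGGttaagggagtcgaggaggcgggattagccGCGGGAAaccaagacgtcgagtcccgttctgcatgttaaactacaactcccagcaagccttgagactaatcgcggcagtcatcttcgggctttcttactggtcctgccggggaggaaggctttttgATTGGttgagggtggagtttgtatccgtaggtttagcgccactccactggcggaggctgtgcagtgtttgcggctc
Rad54l: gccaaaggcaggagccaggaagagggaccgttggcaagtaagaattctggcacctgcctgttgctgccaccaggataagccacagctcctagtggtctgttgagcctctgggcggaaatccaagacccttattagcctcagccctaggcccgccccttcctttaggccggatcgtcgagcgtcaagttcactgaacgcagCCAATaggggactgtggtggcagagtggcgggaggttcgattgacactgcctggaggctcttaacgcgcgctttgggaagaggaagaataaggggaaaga
Xrcc6: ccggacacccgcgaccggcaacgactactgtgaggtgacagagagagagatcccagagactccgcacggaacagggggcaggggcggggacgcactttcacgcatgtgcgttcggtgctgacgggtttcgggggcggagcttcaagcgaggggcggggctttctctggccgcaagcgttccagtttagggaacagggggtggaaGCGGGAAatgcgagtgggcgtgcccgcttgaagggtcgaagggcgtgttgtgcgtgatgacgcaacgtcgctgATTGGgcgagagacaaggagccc

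TTCCCGC stood in the windows of 13 of 27 break repair genes (48.1%). The share was 9.11% in 11125 tested genes with a window and 5.29% in 27025 genes of the table. Of 25 S phase genes with a window 13 held it (52%), and of 25 genes of G2 and M phase 0 held it. The share was 5 of 12 in the recombination and Fanconi genes and 5 of 10 in the end joining and checkpoint genes. CCAAT stood in 15 of 27 break repair genes (55.6%), against 42.5% of tested genes. It stood in 18 of 25 S phase genes (72%) and in 20 of 25 genes of G2 and M phase (80%). Of the 4 sequences printed, Chek2 and Xrcc6 hold both motifs, Chek1 holds the first and Rad54l the second. These matches are letters in a window and say nothing of whether a factor binds there.

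In Lgr5 cells, no break repair gene passed the test for a diet difference. With edgeR's quasi-likelihood test and Benjamini-Hochberg adjustment, 0 of 33 genes had an adjusted p under 0.05, where 0.0189% of all genes did. At an unadjusted p under 0.05 there were 4 of 33 (12.1%), against 9.78% of all genes, and all 4 were lower in Lgr5 CR, where 4.21% of all genes were called as lower. DESeq2 also called 0 of the 33, and 2.3% of all genes. Log2 fold changes were below 0 for 23 of 33 genes (69.7%), against 48.2% of all genes, with a median of -0.14 against 0.02 for all genes.

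Rad54l, a motor protein that helps the recombinase invade the sister strand, had 21.4, 32.5 and 29.2 CPM in Lgr5 CR, against 35.4, 50.6 and 45.6 CPM in Lgr5 AL. Every CR library was below every AL library. The means were 27.7 ± 5.70 and 43.9 ± 7.72 CPM (SD, n = 3 each), and the log2 fold change was -0.66 (SE 0.218, edgeR adjusted p = 0.352). Rad54l shares exon sequence on the other strand with Lrrc41, and the kits used do not mark strand, which touches 15 of the 34 genes. Xrcc6 had 49.1, 68.3 and 56.0 CPM in Lgr5 CR, against 68.7, 77.3 and 90.6 CPM in Lgr5 AL. Its groups did not overlap either, though the highest CR library lay just under the lowest AL library. The log2 fold change of Xrcc6 was -0.45 (SE 0.177, edgeR adjusted p = 0.456), and Xrcc6 overlaps Desi1 on the other strand. Chek2 had 24.0, 29.3 and 31.1 CPM in Lgr5 CR, against 30.8, 44.0 and 44.8 CPM in Lgr5 AL. Its groups overlapped at 1 library, and the log2 fold change was -0.50 (SE 0.201, edgeR adjusted p = 0.462).

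By complete separation of the CR and AL libraries in Lgr5 cells, 0 of 33 genes were higher (7.41% of all genes) and 4 were lower (7.49% of all genes). The 4 were Rad54l, Xrcc6, the recombination gene Rad51c and the end joining gene Nhej1. Nhej1, which bridges ends for the ligase, had 5.27, 6.37 and 4.52 CPM in Lgr5 CR, against 7.71, 8.52 and 8.29 CPM in Lgr5 AL. Rad51c, a paralog of the recombinase, was lowly expressed, at 1.63, 0.764 and 1.24 CPM in Lgr5 CR, against 1.71, 3.03 and 2.60 CPM in Lgr5 AL.

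By role, fold changes in Lgr5 CR against Lgr5 AL were below 0 for 3 of 4 checkpoint kinases, 4 of 5 break marking genes, 8 of 10 recombination genes and 3 of 3 Fanconi genes. End joining genes were divided, with 4 of 7 below 0, and 48.2% of all genes were below 0. The end resection genes went the other way in 3 of 4, with Rbbp8 at 0.51, Rad50 at 0.34 and Mre11a at 0.26 in log2 fold change. None of these genes passed the test. The resection genes were higher mainly in 1 pair, with a mean log2 difference between the CR and AL libraries of 1.18 in isolation 1, 0.0067 in isolation 2 and -0.21 in isolation 3. Fancd2, which is ubiquitinated at stalled forks together with Fanci, had 15.3, 11.1 and 16.9 CPM in Lgr5 CR, against 16.3, 24.4 and 20.5 CPM in Lgr5 AL. The Fancd2 groups overlapped slightly, and its log2 fold change was -0.50 (SE 0.230, edgeR adjusted p = 0.518).

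Several key genes showed no shift larger than their spread. Atm had 9.34, 9.89 and 11 CPM in Lgr5 CR, against 16.3, 5.88 and 21.5 CPM in Lgr5 AL, with the AL libraries on both sides of the CR range. Brca1, a ubiquitin ligase that favours resection and recombination, had 13.0, 10.2 and 16.8 CPM in Lgr5 CR, against 7.67, 15.1 and 23.2 CPM in Lgr5 AL. Prkdc, the kinase that Ku recruits, averaged 15.7 ± 3.43 CPM in Lgr5 CR and 15.7 ± 4.59 CPM in Lgr5 AL (SD, n = 3 each). Lig4, which seals the joined ends, had 5.73, 4.18 and 5.42 CPM in Lgr5 CR, against 1.75, 3.59 and 6.26 CPM in Lgr5 AL. The AL libraries of Atm, Brca1 and Lig4 spread more widely than the CR libraries.

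The cell cycle lists give the setting of these values. All 30 S phase genes had fold changes below 0 in Lgr5 CR against Lgr5 AL (median log2 fold change -0.44), where 48.2% of all genes did. An unadjusted p under 0.05 was met by 11 (36.7%), all lower, against 9.78% of all genes (4.21% as lower). None had an adjusted p under 0.05. The summed level of the 30 genes was 1510, 2422 and 1966 CPM in Lgr5 CR, against 2228, 3272 and 2796 CPM in Lgr5 AL. Of 28 genes of G2 and M phase 20 had fold changes above 0 (71.4%, against 51.8% of all genes, median 0.07). All 8 tuft cell markers were lower in Lgr5 CR (median log2 fold change -1.91, with 0 past an adjusted p of 0.05). All 10 enterocyte markers were higher (median 0.79, 3 at an unadjusted p under 0.05 and 0 at an adjusted one), as were 8 of 9 enteroendocrine markers (median 0.64, 0 past either). The part of these lists in the break repair values was not tested.

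**Figure D2:**
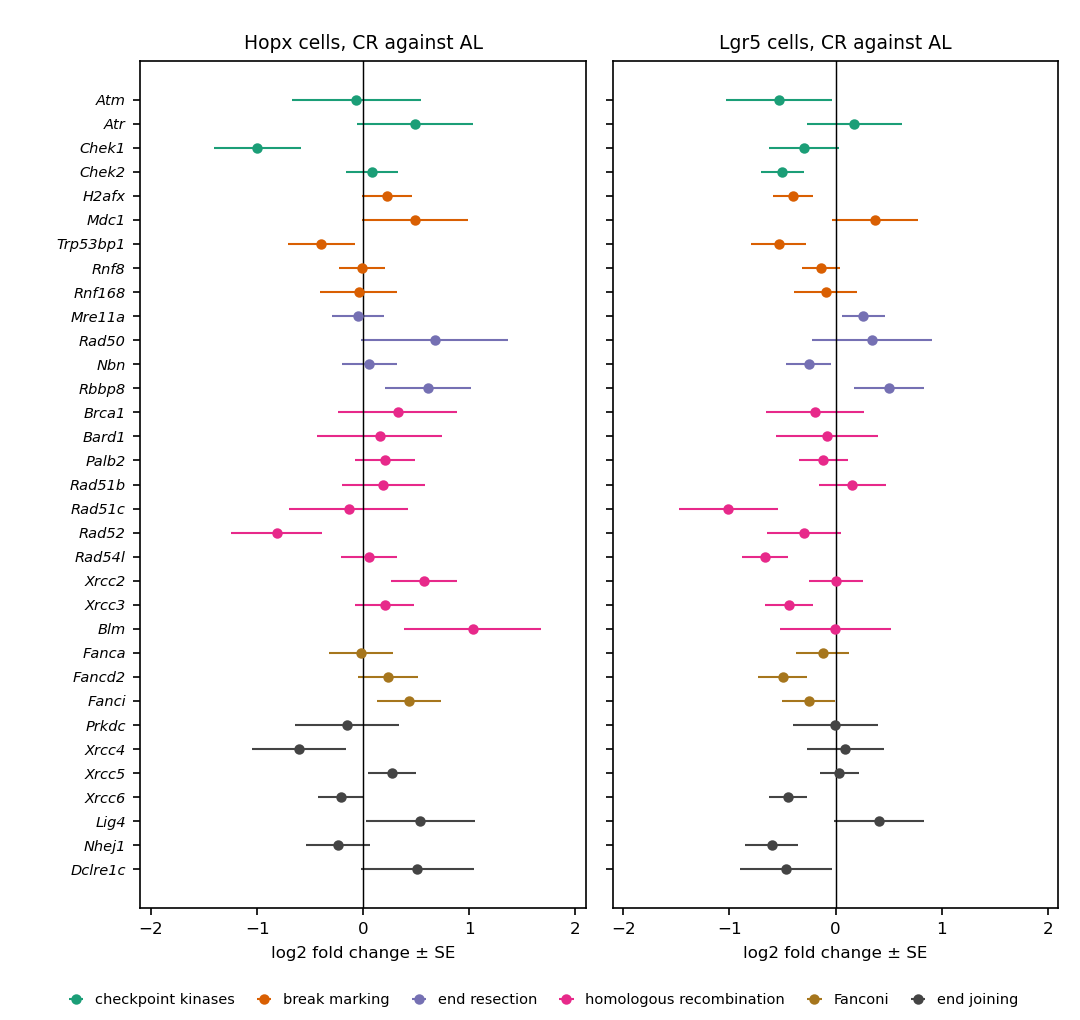
Log2 fold change of CR against AL for each of the 33 tested genes in Hopx cells (left) and Lgr5 cells (right), with bars of 1 standard error on each side and colours by role. None passed an adjusted p of 0.05. In Lgr5 cells 23 of 33 lie below 0, and in Hopx cells 20 of 33 lie above 0.

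In Hopx cells the break repair genes also gave 0 of 33 past an adjusted p of 0.05 with edgeR, where 0.0126% of all genes passed. Only Chek1 had an unadjusted p under 0.05, which is 3.03% of the 33 against 8.52% of all genes (3.11% as lower), and DESeq2 called 0 of the 33 and 0.884% of all genes. Fold changes were above 0 for 20 of 33 genes (60.6%), against 48.6% of all genes, with a median log2 fold change of 0.15 against -0.02 for all genes. With 2 animals a group, non-overlap is common. It was met by 9 genes as higher (21.5% of all genes) and 5 as lower (21.1% of all genes). The 5 lower genes were Chek1, Trp53bp1, Xrcc4, Xrcc6 and Nhej1.

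Chek1, the effector kinase of Atr that halts the cycle when replication stalls, had 5.41 and 7.88 CPM in Hopx CR, against 10.3 and 16.3 CPM in Hopx AL. Both CR libraries were below both AL libraries. The means were 6.65 ± 1.74 and 13.3 ± 4.26 CPM (SD, n = 2 each), and the log2 fold change was -0.998 (SE 0.407, edgeR adjusted p = 0.558). Rad52, which anneals single strands, had 7.90 and 3.44 CPM in Hopx CR, against 7.29 and 12.7 CPM in Hopx AL, and the groups overlapped (log2 fold change -0.81, edgeR adjusted p = 0.626). Xrcc2, a paralog of the recombinase, had 11.4 and 7.44 CPM in Hopx CR, against 6.16 and 6.57 CPM in Hopx AL. The Xrcc2 groups did not overlap, and its log2 fold change was 0.57 (SE 0.311, edgeR adjusted p = 0.632).

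Fold changes in Hopx CR against Hopx AL were above 0 for 8 of 10 recombination genes, 2 of 3 Fanconi genes and 3 of 4 resection genes. They were above 0 for 2 of 4 checkpoint kinases, 2 of 5 break marking genes and 3 of 7 end joining genes, against 48.6% of all genes. The resection genes had a mean log2 difference of 0.78 in isolation 4 and 0.0069 in isolation 5. Blm, a helicase that unwinds recombination intermediates, had the highest fold change, at 9.49 and 8.16 CPM in Hopx CR against 1.76 and 6.91 CPM in Hopx AL (log2 fold change 1.03, SE 0.646, edgeR adjusted p = 0.679). That value turns on Hopx AL replicate 1, which was far below the other 3 Hopx libraries. The same library had the highest summed level of Paneth markers, and their part in the value was not tested. Brca1 shows the same library, with 25.5 and 17.1 CPM in Hopx CR against 8.73 and 25.4 CPM in Hopx AL. Fancd2 had 14.2 and 13.5 CPM in Hopx CR, against 11.2 and 12.3 CPM in Hopx AL, and Lig4 had 9.22 and 6.68 CPM in Hopx CR, against 5.15 and 5.81 CPM in Hopx AL. Both genes were higher in both CR libraries than in both AL libraries, and the log2 difference of Lig4 was 0.84 in isolation 4. Atm, at 21.7 and 8.04 CPM in Hopx CR against 10.1 and 21.1 CPM in Hopx AL, and Prkdc, at 8.44 and 14.9 CPM in Hopx CR against 6.81 and 19.2 CPM in Hopx AL, had overlapping groups.

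Other lists moved with diet in the Hopx libraries. Of 28 genes of G2 and M phase 27 had higher fold changes in Hopx CR (median 0.46, with 0 past an adjusted p of 0.05), and of 30 S phase genes 12 did (median -0.07). All 14 immune markers were lower (median log2 fold change -1.74, with 0 past an adjusted p of 0.05), with a summed level of 70.0 and 105 CPM in Hopx CR against 343 and 215 CPM in Hopx AL and no marker at 0 in any library. All 10 enterocyte markers were higher in Hopx CR (median 1.11) and all 9 enteroendocrine markers were lower (median -0.91), as were 7 of 8 Paneth markers (median -0.67), with 0 of these past an adjusted p of 0.05. The Y-linked gene Eif2s3y was at 0.254 CPM in Hopx CR replicate 1 against 41.2 CPM in Hopx AL replicate 1, and the 2 animals of isolation 4 were therefore unlike in this transcript. In isolation 3 Eif2s3y was at 0.116 CPM in Lgr5 CR and 0.0406 CPM in Lgr5 AL, and all other libraries held 14.2 to 49.8 CPM. Its presence thus varied within both Lgr5 groups, and went with diet in isolation 4. The part of these differences in the break repair values was not tested.

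Over both lines together, 0 of 33 genes passed with edgeR, where 0.00631% of all genes did, and DESeq2 called 0 (4.05% of all genes). There were 3 at an unadjusted p under 0.05 (9.09%, against 14.5% of all genes), all lower in CR, where 6.17% of all genes were called as lower. Fold changes were below 0 for 18 of 33 (54.5%), against 50.1% of all genes. The 3 were Chek1 (log2 fold change -0.65, SE 0.262, edgeR adjusted p = 0.303), Xrcc6 (-0.33, SE 0.140, edgeR adjusted p = 0.325) and Trp53bp1 (-0.47, SE 0.205, edgeR adjusted p = 0.337). Trp53bp1 had 24.7 and 20.8 CPM in Hopx CR against 28.8 and 31.0 CPM in Hopx AL, and 37.9, 27.7 and 42.6 CPM in Lgr5 CR against 37.4, 45.6 and 74.1 CPM in Lgr5 AL. The Hopx groups of Trp53bp1 were apart and the Lgr5 groups overlapped. The Lgr5 groups of Chek1 overlapped too, at 6.43 to 9.23 CPM in CR and 6.14 to 12.3 CPM in AL. Its log2 differences between CR and AL libraries were -0.92 and -1.04 in isolations 4 and 5, and 0.07, -0.28 and -0.54 in isolations 1 to 3. Xrcc6 ranged from 50.4 to 64.4 CPM in Hopx CR and from 65.4 to 67.4 CPM in Hopx AL.

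The isolation pairs show how far each animal pair agreed. Mdc1, the adaptor that binds phosphorylated H2afx, was higher in the CR library in all 5 pairs, where 8.71% of all genes were, with log2 differences of 1.15 and 0.03 in the Hopx pairs and 0.05, 0.46 and 0.43 in the Lgr5 pairs. Xrcc6 and Nhej1 were lower in all 5 pairs, where 7.68% of all genes were. The log2 differences of Xrcc6 were -0.42 and -0.02 in the Hopx pairs and -0.48, -0.18 and -0.69 in the Lgr5 pairs. For Nhej1 they were -0.17 and -0.29 in the Hopx pairs and -0.55, -0.42 and -0.87 in the Lgr5 pairs. So 3 of 33 genes kept a direction across all 5 pairs.

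Within Lgr5 cells, 10 of 33 genes were lower in the CR library of all 3 pairs (17.3% of all genes) and 2 were higher (18.1% of all genes). Within Hopx cells, 5 were lower in both pairs (29.2% of all genes) and 12 were higher (27.9% of all genes). The whole set differed from pair to pair. Of the 33 genes, 20, 10 and 5 were higher in the CR library in isolations 1, 2 and 3, and 25 and 15 in isolations 4 and 5. The mean log2 difference over the 33 genes was 0.41 and -0.14 in the Hopx pairs and 0.23, -0.25 and -0.37 in the Lgr5 pairs, while the median over all genes was within 0.044 of 0 in each isolation. The list of G2 and M phase also differed by pair, with means of 1.10 and 0.18 in the Hopx pairs and 0.68, -0.43 and 0.33 in the Lgr5 pairs. For the S phase list they were -0.18 and 0.08 in the Hopx pairs and -0.44, -0.40 and -0.61 in the Lgr5 pairs. The part of these lists in the pair differences of the break repair genes was not tested.

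Differences between the CR and AL libraries also varied with transcript length in isolations 4 and 1. In isolation 4 the median log2 difference of all tested genes ran from -0.38 for transcripts under 1.5 kb to 0.38 for those over 8 kb, and in isolation 1 from -0.22 to 0.50. No such slope was present in isolation 2, where the length classes had medians of -0.03 to 0.03, nor in isolation 3, where they had 0.00 to 0.07. In isolation 5 the medians were -0.13 to 0.05. Of the 13 break repair genes with transcripts of at least 5 kb, 12 were higher in the CR library of isolation 4 (median log2 difference 0.84, against 0.33 for all 2941 genes of that length) and 10 in isolation 1 (0.22, against 0.36). In isolations 2, 3 and 5 there were 6, 3 and 5 of 13.

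Long genes did not all follow this slope. Atm was higher in the AL library of isolation 1 (log2 difference -0.80), while Rad50 was low in the AL libraries of isolations 1 and 4. Rad50, a subunit of the complex that tethers and trims broken ends, had 24.4 and 29.0 CPM in Hopx CR, against 8.97 and 24.6 CPM in Hopx AL. In Lgr5 cells Rad50 had 25.5, 21.5 and 19.1 CPM in CR, against 4.03, 23.6 and 24.4 CPM in AL. The replicate 1 AL libraries were thus lowest in both lines, and the remaining 8 libraries lay between 19.1 and 29.0 CPM. With a correction for transcript length in each library, 0 of 33 genes passed in all comparisons and the median log2 fold change of the 33 genes was -0.25 in Lgr5 cells and 0.06 in Hopx cells. Without isolation 4, which leaves 1 animal in each Hopx group, the Hopx median was -0.05, and without isolation 1 the Lgr5 median was -0.35. The positive median in Hopx CR thus rests on isolation 4, and leaving out Hopx AL replicate 1 gave -0.01. With replicate 2 of Hopx AL left out instead, it was 0.30. The negative median in Lgr5 CR, -0.14 with all libraries, was -0.04 without Lgr5 AL replicate 3, -0.35 without Lgr5 AL replicate 1 and -0.28 without Lgr5 CR replicate 3.

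**Figure D3:**
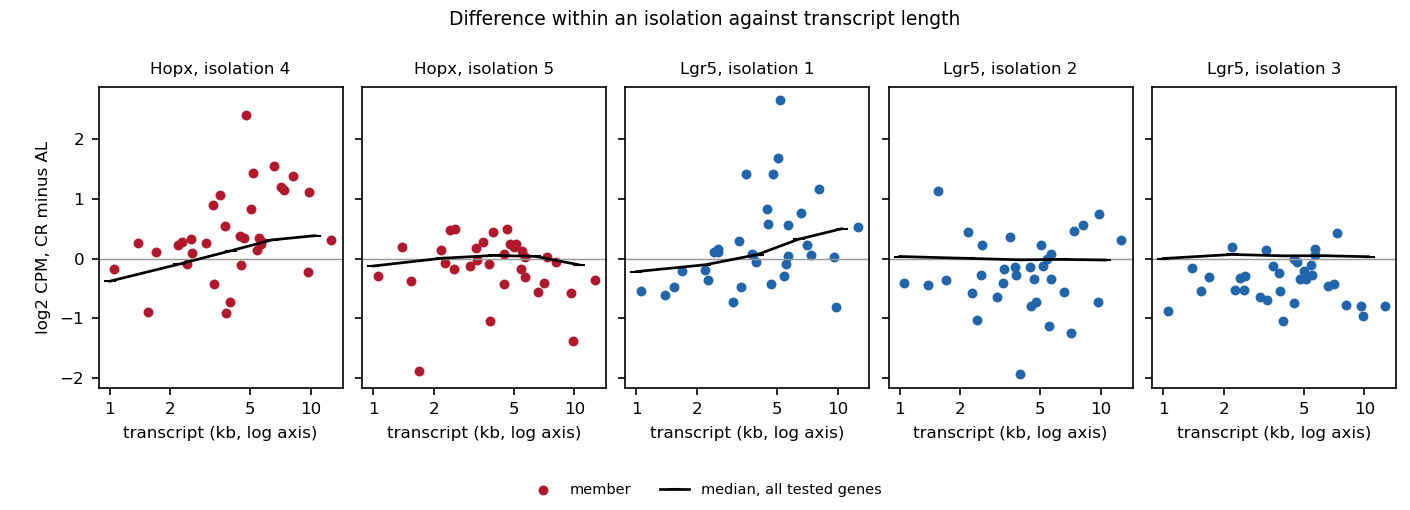
Log2 CPM of the CR minus the AL library of each isolation (vertical axis) against transcript length in kb (horizontal axis, log scale) for the 33 tested genes (points), with the median of all tested genes in 5 length classes (line). The line climbs in isolation 4 and isolation 1, where the longest break repair genes lie mostly above 0, and is near 0 at all lengths in isolations 2 and 3.

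No break repair gene passed the test for a diet difference that itself differed between the lines. With edgeR, 0 of 33 had an adjusted p under 0.05, where 0.00631% of all genes did, and 0 had an unadjusted p under 0.05, against 4.72% of all genes. DESeq2 called 0 as well, and 0.221% of all genes. The Hopx diet difference exceeded the Lgr5 one for 28 of 33 genes (84.8%), against 46.5% of all genes, with a median difference of 0.31 against -0.04 for all genes. This median turned on single libraries. It was 0.06 without isolation 4 (0.03 for all genes), 0.12 without Lgr5 AL replicate 3 and 0.15 without Hopx AL replicate 1. When Hopx AL replicate 2 was left out it was 0.57. The 3 nearest were Rad54l (difference of log2 fold changes 0.72, SE 0.343), H2afx (0.63, SE 0.302) and Fancd2 (0.73, SE 0.363), each with an edgeR adjusted p of 1.00. H2afx had 129 and 148 CPM in Hopx CR against 108 and 129 CPM in Hopx AL, and 101, 146 and 126 CPM in Lgr5 CR against 154, 199 and 140 CPM in Lgr5 AL. Within each pair, H2afx was higher in the CR library of both Hopx isolations and lower in that of all 3 Lgr5 isolations. Fancd2 and Fanci had the same order of pairs, which makes 3 of 33 genes with opposite directions in every pair of the 2 lines, where 2.78% of all genes had that order, and 0 of 33 had the reverse order, which 2.47% of all genes had. In Lgr5 cells the CR and AL libraries of all 3 genes overlapped, and in Hopx cells those of Fancd2 and Fanci did not.

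Between the lines under free feeding, most break repair genes had lower levels in Hopx cells, and none passed. This comparison uses the same AL libraries as the diet comparisons. Each line had its own isolations and its own reporter. Line, isolation and reporter therefore cannot be told apart in any comparison of Hopx with Lgr5 cells. With edgeR 0 of 33 had an adjusted p under 0.05, where 0.0189% of all genes did, and 5 had an unadjusted p under 0.05 (15.2%, against 17.7% of all genes), all lower, where 8.42% of all genes were called as lower. Fold changes of Hopx AL against Lgr5 AL were below 0 for 27 of 33 genes (81.8%), against 47.5% of all genes, with a median of -0.28 against 0.04. Without Hopx AL replicate 2 the median was -0.52, and without Hopx AL replicate 1 it was -0.21 (-0.06 for all genes). The 27 genes below 0 with all libraries included 9 of 10 recombination genes, 3 of 3 Fanconi genes and 5 of 5 break marking genes. The rest were 3 of 4 resection genes, 5 of 7 end joining genes and 2 of 4 checkpoint kinases. Fancd2 (chr6:113531682-113597017) had 11.2 and 12.3 CPM in Hopx AL, against 16.3, 24.4 and 20.5 CPM in Lgr5 AL, and both Hopx libraries were below all 3 Lgr5 libraries. Its log2 fold change was -0.79 (SE 0.262, edgeR adjusted p = 0.168). DESeq2, which called 1157 genes here (7.3%) against 3 with edgeR, called Fancd2 as the single break repair gene (-0.83, DESeq2 adjusted p = 0.0288). On log2(TPM + 1), limma called 11 break repair genes, all lower in Hopx AL, on a scale where 3359 genes passed (21.2%) and the median of all genes was -0.49.

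Trp53bp1 (chr2:121193281-121271407) had the values given above, with both Hopx AL libraries below the 3 Lgr5 AL libraries (log2 fold change -0.81, SE 0.297, edgeR adjusted p = 0.200). Fanci, the partner of Fancd2, had 10.2 and 12.7 CPM in Hopx AL, against 16.1, 21.4 and 20.3 CPM in Lgr5 AL, again with no overlap (-0.75, SE 0.282, edgeR adjusted p = 0.210). Each of these 3 genes shares exon sequence with a gene on the other strand, Fancd2os, Tubgcp4 and Polg in turn.

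Under calorie restriction the lines were closer. In Hopx CR against Lgr5 CR, 0 of 33 genes passed with edgeR or DESeq2 (0.0189% of all genes with edgeR and 1.01% with DESeq2), and 1 had an unadjusted p under 0.05 (3.03%, against 6.3% of all genes and 2.99% as lower). Fold changes were below 0 for 17 of 33 (51.5%), against 49.8% of all genes, with a median of -0.01. Trp53bp1 was the nearest to the threshold, with both Hopx CR libraries below the 3 Lgr5 CR libraries (-0.67, SE 0.295, edgeR adjusted p = 0.793). Rad52 had 7.90 and 3.44 CPM in Hopx CR, against 7.78, 8.10 and 10.1 CPM in Lgr5 CR (-0.61, edgeR adjusted p = 0.884). Mdc1 had 16.1 and 16.0 CPM in Hopx CR, against 13.1, 29.7 and 33.8 CPM in Lgr5 CR (-0.67, edgeR adjusted p = 0.899). Rad52 and Mdc1 overlapped between the lines.

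Over both diets, 0 of 33 genes passed with edgeR, where 1.33% of all genes did, and 4 had an unadjusted p under 0.05 (12.1%, against 19.5% of all genes), all lower in Hopx cells, where 9.03% of all genes were called as lower. Fold changes were below 0 for 24 of 33 (72.7%), against 49.5% of all genes. Trp53bp1 was lower in Hopx cells under both diets (log2 fold change -0.74, SE 0.209, edgeR adjusted p = 0.105), and DESeq2 called it (-0.76, DESeq2 adjusted p = 0.0137) as 1 of 33 (3.03%), where it called 8.84% of all genes. On log2(TPM + 1), limma called 6 break repair genes, all lower in Hopx cells, where 21.2% of all genes passed and the median of all genes was -0.35. Next were Xrcc2 (-0.49, SE 0.203, edgeR adjusted p = 0.226) and Fancd2 (-0.43, SE 0.183, edgeR adjusted p = 0.237). Xrcc2 had 11, 9.23 and 12.4 CPM in Lgr5 CR and 8.96, 12.3 and 11.3 CPM in Lgr5 AL, so Hopx CR replicate 1 lay among these values, and Hopx CR replicate 2 and both Hopx AL libraries lay below them. No break repair gene was separated between all 4 Hopx and all 6 Lgr5 libraries, where 2.87% of all genes were as higher and 1.94% as lower. For Trp53bp1, 31.0 CPM in Hopx AL replicate 2 exceeded 27.7 CPM in Lgr5 CR replicate 2.

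Other lists differed between the lines over both diets. In Hopx cells all 9 enteroendocrine markers were higher (median log2 fold change 1.45, 3 past an adjusted p of 0.05) and 6 of 7 goblet markers were higher (median 1.11, 2 past it). All 8 Paneth markers (median 0.86) and all 8 tuft cell markers (median 0.60) were higher as well, with 0 past it. The immune markers were lower in 11 of 14 (median -0.43), and 1 that was higher passed. The S phase list was at a median of -0.01 and the list of G2 and M phase at -0.08. The part of these cell types in the levels of break repair genes was not tested.

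**Figure D4:**
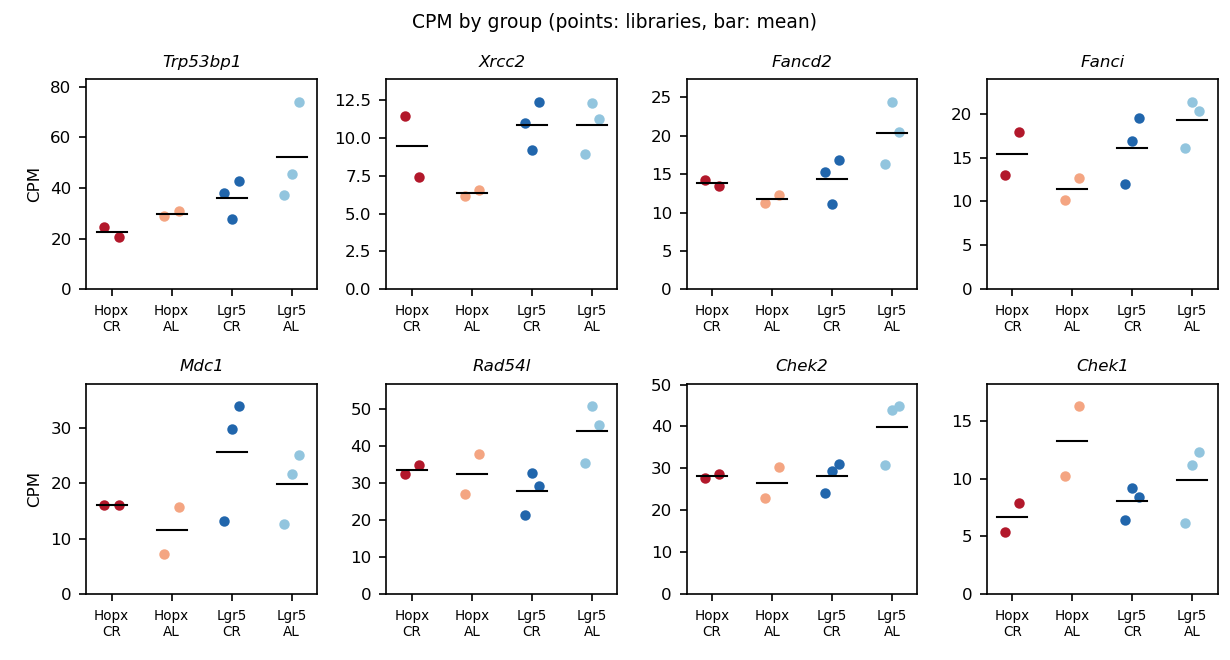
CPM of 8 break repair genes in each library (points) with the group mean (bar), in Hopx CR, Hopx AL, Lgr5 CR and Lgr5 AL. Trp53bp1 is lower in the Hopx libraries than in all but 1 of the Lgr5 libraries, Fancd2 and Fanci are lowest in Hopx AL, Rad54l and Chek2 are highest in Lgr5 AL, and Chek1 is highest in Hopx AL.

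The recombination and Fanconi genes were set against the end joining and checkpoint genes as a description, with 13 and 11 tested genes. In Hopx CR against Hopx AL the median log2 fold change was 0.20 for the first set and -0.06 for the second, a difference of 0.267. In Lgr5 CR against Lgr5 AL the medians were -0.20 and -0.30, a difference of 0.102. In Hopx against Lgr5 cells over both diets they were -0.20 and -0.06, a difference of -0.138. These differences have no test. Without Hopx AL replicate 2 the Hopx diet difference was 0.00465.

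Library by library, the mean log2 CPM of the first set minus that of the second was -0.45 and -0.52 in Hopx CR, against -0.65 and -0.79 in Hopx AL. In Lgr5 cells it was -0.46, -0.63 and -0.28 in CR, against -0.48, 0.03 and -0.63 in AL. The Hopx groups did not overlap, and the Lgr5 groups did. In Lgr5 cells the mean of these values was lower in CR than in AL, the opposite sign to the difference of the median fold changes. Fold changes of recombination and Fanconi genes were below 0 for 11 of 13 in Lgr5 CR against Lgr5 AL, above 0 for 10 of 13 in Hopx CR against Hopx AL and below 0 for 12 of 13 in Hopx against Lgr5 cells over both diets. For end joining and checkpoint genes these counts were 7, 5 and 7 of 11. Over all genes, the shares in these comparisons were 48.2% below, 48.6% above and 49.5% below 0.

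**Figure D5:**
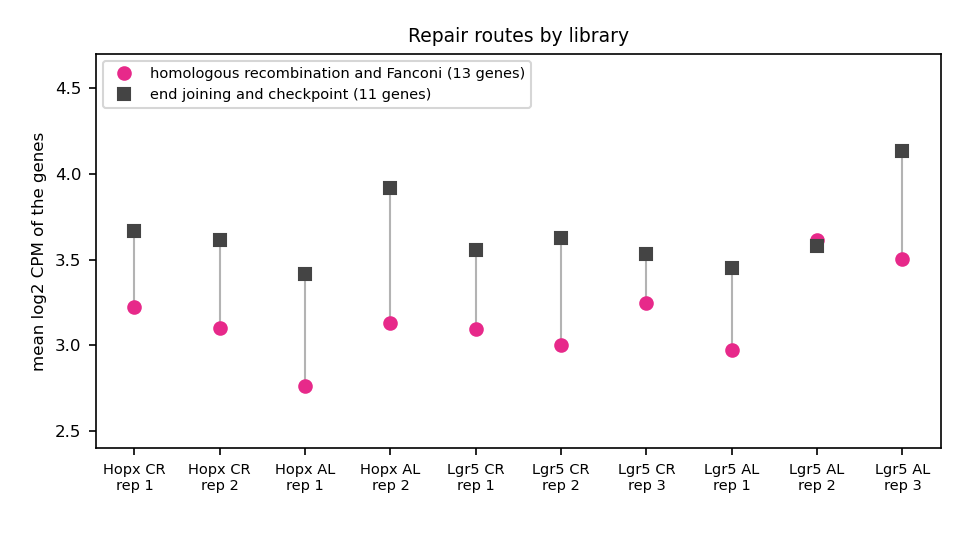
Mean log2 CPM of the 13 recombination and Fanconi genes (circles) and the 11 end joining and checkpoint genes (squares) in each library, with Hopx CR, Hopx AL, Lgr5 CR and Lgr5 AL from left to right. The circle is below the square in 9 of 10 libraries, and the gap is widest in Hopx AL replicate 2 and absent in Lgr5 AL replicate 2.

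Further genes of the same pathways were listed apart from the 34, and none passed in any of the 7 comparisons. Of 28 further recombination and Fanconi genes 22 were below 0 in Lgr5 CR against Lgr5 AL (median log2 fold change -0.18), and 15 were below 0 in Hopx CR against Hopx AL (median -0.02). Of 13 further end joining genes 5 were below 0 in each of these comparisons, and of 19 further checkpoint and break marking genes 11 and 9 were. Over all genes, 48.2% were below 0 in the Lgr5 comparison and 51.3% in the Hopx comparison. In Lgr5 cells Brcc3, a deubiquitinase of the complex that carries Brca1 to breaks, averaged 24.7 ± 2.80 CPM in CR and 39.1 ± 3.89 CPM in AL (SD, n = 3 each, log2 fold change -0.66, edgeR adjusted p = 0.326). Parp1, a sensor of nicks and breaks, averaged 116 ± 23.6 CPM in Lgr5 CR and 172 ± 34.4 CPM in Lgr5 AL (SD, n = 3 each, log2 fold change -0.57, edgeR adjusted p = 0.422). The CR libraries of both genes lay below all AL libraries.

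In Hopx cells Mus81, a nuclease for branched DNA, had 13.3 and 16.4 CPM in CR against 25.6 and 23.9 CPM in AL (log2 fold change -0.74, edgeR adjusted p = 0.504). Uimc1, a ubiquitin reader of the complex with Brcc3, had 11.1 and 12.1 CPM in CR against 16.8 and 21.5 CPM in AL (-0.72, edgeR adjusted p = 0.504). Over both lines Brcc3 was at -0.59 (edgeR adjusted p = 0.181) and Mus81 at -0.45 (edgeR adjusted p = 0.245) in log2 fold change of CR against AL. For the difference of the diet effects, the base repair scaffold Xrcc1 (0.57) and Top3a (0.69), the topoisomerase that works with Blm, were nearest, both with an edgeR adjusted p of 1.00. The further genes closest to the threshold in any comparison were Wee1 and Xrcc1 between the lines.

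Wee1, a kinase that holds cells before mitosis, had 57.1 and 57.5 CPM in Hopx AL, against 88.0, 119 and 164 CPM in Lgr5 AL (log2 fold change -1.11, SE 0.253, edgeR adjusted p = 0.0938). Over both diets its log2 fold change was -0.74 (edgeR adjusted p = 0.0724), and every Hopx library was below every Lgr5 library. Xrcc1 had 36.5 and 41.4 CPM in Hopx AL, against 58.4, 71.3 and 59.6 CPM in Lgr5 AL (-0.70, edgeR adjusted p = 0.0959), and was at -0.41 over both diets (edgeR adjusted p = 0.0994). Under calorie restriction the nearest were Atrip, the partner of Atr, at -0.43 (edgeR adjusted p = 0.796), and the polymerase gene Polm at -0.48 (edgeR adjusted p = 0.840).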

How the data were processed

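RNA-seq of 10 libraries was analysed. TRIzol LS and spin columns gave the RNA, SMART-Seq v4 the cDNA and Nextera XT the libraries, per the labels' protocols, and these kits add no molecular identifiers and mark no strand. The submitters' processing notes name kallisto, edgeR and GRCh38, a human build, while the symbols are mouse symbols. Annotation, versions and filters are not stated there. The authors deposited estimated counts per gene and TPM per gene for the same rows.

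Estimated counts were rounded. With edgeR 4.0.16 (R 4.3.3), genes were filtered by filterByExpr (minimum count 10), scaled by TMM and fitted by the quasi-likelihood method with a mean for each of 4 groups, with all 10 libraries sharing the spread (biological coefficient of variation 0.389). The 2-sided p-values of 7 comparisons were adjusted by Benjamini-Hochberg over 15839 genes, with a threshold of 0.05. CPM are TMM-scaled, and log2 CPM of pairs use a prior count of 2. SE is the fold change over the square root of the F statistic. No test was run on the role sets. The fits were tested on simulated data.

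The genes and lists were chosen with earlier results of these data known. Values are given for genes past the threshold, otherwise for the 3 with the smallest p in a comparison, and always for Atm, Chek1, Brca1, Brca2, Fancd2, Prkdc, Xrcc6 and Lig4; for further pathway genes the 2 with the smallest p. Rad50, Blm, Nhej1, Rad51c and other genes outside this rule were named after their values were seen.

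Isolation numbers in the labels pair the animals. Deviations of same-numbered libraries from their group means correlated at 0.0759, 0.165, 0.0195, 0.0252 and 0.0252 in isolations 1 to 5. Alternatives were DESeq2 size factors, no filter, DESeq2 1.42.0, limma 3.58.1 on log2(TPM + 1), isolation as a block and leaving out each library. A transcript length correction and leaving out isolation 1 or 4 were added after seeing the data. Transcript lengths and strand overlaps come from GENCODE M21, which held 95.5% of tested genes and all 33 tested break repair genes.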

Additional observations from a re-analysis of the deposited data

How the results depend on the processing

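With any setting that kept at least 2 animals in each group, 0 break repair genes passed in the 4 diet comparisons. This count was 0 with the replicate block on isolation, whose use changed no call of a break repair gene. Over all genes the block moved the calls from 3 to 0 in Lgr5 cells, from 2 to 0 in Hopx cells and from 1 to 2 over both lines. For the difference of diet effects they went from 1 to 0. Between lines under free feeding the count of break repair genes was 1 with DESeq2. It was 11, all lower, with limma on log2(TPM + 1), where 3359 genes passed and the median of all genes was -0.49. Over both diets it was 1 with DESeq2 and 6, all lower, on log2(TPM + 1), where 3350 genes passed and that median was -0.35. On that scale the break repair genes had medians of -0.83 under free feeding and -0.57 over both diets, beside -0.49 and -0.35 for all genes. In the diet comparisons the same scale moved the median of all genes to -0.11 in Lgr5 cells and 0.15 in Hopx cells, with the break repair genes at -0.26 and 0.35. Leaving out any Lgr5 library or isolation 1 kept the count of break repair genes at 0 in all 7 comparisons. Leaving out a Hopx library or isolation 4 leaves 1 animal in a Hopx group, so only fold changes are read from those fits. Trp53bp1 under free feeding ranged from -1.43 to -0.49 and Fancd2 from -1.19 to -0.64 in log2 fold change over 17 alternatives, with adjusted p-values of 0.0376 to 0.527 and 0.0288 to 0.497. Fanci passed in 1 of these (log2(TPM + 1), adjusted p = 0.0414), as did Xrcc2 over both diets (adjusted p = 0.0444).

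The role difference in Hopx cells was 0.00465 without Hopx AL replicate 2, the lowest of 0.00465 to 0.355 when each library was left out, against 0.267 with all. In Lgr5 cells that range was -0.0720 to 0.186 and between lines -0.222 to 0.0264, so 5 of 55 alternative role differences changed sign. Of 381 alternative fold changes of the genes named for the smallest p in a comparison, 0 changed sign. These genes were picked on the same data, so a kept sign is no independent check. None of them passed with edgeR in that comparison with all libraries. Staying above the threshold was thus close to settled beforehand, and some fits leave a Hopx group without replicates, so no stability is read from it.

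Calls over all genes moved more. Against 3 in Lgr5 cells, 2 in Hopx cells and 211 between lines over both diets, the alternatives gave 0 to 365, 0 to 140 and 14 to 3350, with 0 to 641 over both lines, 0 to 35 for the difference of diet effects, 0 to 3359 between lines under free feeding and 1 to 160 under restriction. Groups hold 2 or 3 animals, the coefficient of variation is 0.389, and genes near 1 CPM such as Bard1 and Rad51c rest on few reads.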
